A study of Homo sapiens with 24 samples.

Results

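Aminoacyl-tRNA synthetases were followed in U2932 cells, a line from a human diffuse large B-cell lymphoma, after treatments aimed at the oncogene MYC. The set comprised 36 genes, 20 for cytosolic enzymes and 16 for mitochondrial enzymes whose symbol ends in 2, out of 61541 genes listed at 48 h and 19836 at 72 h. The genes were found by symbol, older or newer, or by gene identifier in both tables. At 48 h there were 6 control libraries from cells given PBS, 4 from cells given PNA2 and 4 from cells given siRNA against MYC. At 72 h there were 5 control and 5 PNA2 libraries. PNA2 belongs to the gamma peptide nucleic acids, DNA analogues that carry bases on a peptide-like backbone, and the labels give its dose as 8 mM, a unit that is doubtful. The siRNA was delivered by electroporation at 500 nM, and the labels do not say that the PBS controls were electroporated, so electroporation and siRNA cannot be told apart. The labels give the control and PNA2 libraries as wild type and the siRNA libraries as a knockdown of MYC, give bone marrow as the tissue, and give cell line entries for the siRNA libraries that differ from U2932 in the last digit. All groups come from a single established line. Nothing says that replicates were separate cultures, so p-values measure only the spread between these libraries, which may be technical.

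Summed values per library ran from 11.12 M to 16.17 M (mega) at 48 h, and reads per library from 8.215 M to 13.69 M at 72 h. The 48 h values were not whole and some were below 0, and ties among low values, at 25.3% to 40.6% of 6821 low genes within a batch and 0% between batches, split the libraries into batches A and B. Batch A held controls 1, 2 and 4, PNA2 replicates 1 and 2 and all siRNA libraries. Batch B held control 3, the control columns 6 and 7, which share a header and carry no replicate number, and PNA2 replicates 3 and 4. Of the B-cell markers 7 of 7 were tested at 48 h. Their summed level ran from 64408 to 73923 in controls, from 73729 to 79025 in siRNA and from 50807 to 89742 in PNA2, with the lowest in PNA2 replicate 2. Of the T and NK cell markers CD3D, CD2 and GNLY were at 0 in all 48 h libraries, and of the myeloid markers FCGR3A, S100A8 and S100A9. The summed T and NK markers, of which TRAC alone reached 10, ran from 72.7 to 238 in controls, from 226 to 251 in siRNA and from 192 to 399 in PNA2 libraries. TRAC stood at 82.3, 72.7 and 219.7 in batch A controls, 236, 199 and 205 in batch B controls, 393, 189.9, 217 and 198 in PNA2 and 236, 248, 222 and 246 in siRNA libraries, and its part in the results was not tested. COL1A1, a stromal collagen, stood at 142 in PNA2 replicate 4 against at most 23.3 in the other 48 h libraries.

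These enzymes attach each amino acid to its own tRNAs, the step that sets the meaning of the genetic code. Mitochondrial synthetases are encoded in the nucleus, imported, and serve the few proteins translated inside the organelle, most of them respiratory chain subunits. GARS1 and KARS1 supply both compartments. Several cytosolic synthetases sit with the scaffold proteins AIMP1, AIMP2 and EEF1E1 in the multisynthetase complex. MYC binds E-box sequences and is known for raising genes of protein synthesis, and ATF4, the transcription factor of the amino acid and unfolded protein stress responses, is known for raising many cytosolic synthetase genes through CEBP-ATF elements.

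The upstream windows of the members were searched for these elements, since both factors act through them. RefSeq windows of 250 bases before the annotated start (GRCh38.p14) were held for 30 of the 36 members, 16 cytosolic and 14 mitochondrial. The motif CACGTG, the E-box bound by MYC and its partner MAX, was found in 1 cytosolic window (6.25%) and in 2 mitochondrial windows (14.3%), against 6.34% of 35116 windows of the same length. The motif TGATGNAA, the core shared by CEBP-ATF elements, was found on either strand in 2 cytosolic windows (12.5%) and 1 mitochondrial window (7.14%), against 3.14% of all windows. The stretches of 30 bases around each match are shown 5′ to 3′ on the strand of the gene, with the match in capitals, to let the elements be read in place. TTGCATCA is TGATGNAA read on the opposite strand.
IARS1 E-box, chr9:92293866-92293895: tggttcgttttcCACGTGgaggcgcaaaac
EARS2 E-box, chr16:23557351-23557380: acgcagggagaagccCACGTGtgctattcc
MARS2 E-box, chr2:197705339-197705368: gctgcgcatgcgcctctcaCACGTGctgtc
AARS1 CEBP-ATF core, chr16:70289675-70289704: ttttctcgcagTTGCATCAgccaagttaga
IARS1 CEBP-ATF core, chr9:92293698-92293727: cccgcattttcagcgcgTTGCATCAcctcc
YARS2 CEBP-ATF core, chr12:32756076-32756105: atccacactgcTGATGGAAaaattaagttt

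The EARS2 stretch and the IARS1 CEBP-ATF stretch lie upstream of the RefSeq start used but inside the gene spans of GENCODE 29, which begin further upstream, and all 250 bases of the EARS2 window lie in annotated exons there. IARS1 was the only member among those 30 with both motifs. A match describes the letters of a window and is not evidence of binding.

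Levels were compared between genes after division by merged exon length, in scaled value per kilobase over the control libraries. At 48 h the cytosolic members had a median of 615 per kilobase and the 14 mitochondrial members tested a median of 178. NARS1, which loads asparagine, was highest at 2507 ± 227 (SD, n = 6), and its lowest control library (2308) stood above the highest of FARSA (1364), the next in order at 1209 ± 128. FARSA, TARS2, AARS1 and KARS1 followed each other with overlapping ranges. TARS2, the mitochondrial threonine enzyme, stood at 1113 ± 73.6 and was above all but 2 cytosolic members. CARS1, which loads cysteine, was the lowest cytosolic member at 85.5 ± 5.11, with a mean below 10 of the 14 mitochondrial members. Its range (79.7 to 91.5) overlapped that of HARS2 (81.9 to 91.4). The place of CARS1 among mitochondrial members rests on its merged exon length, 10037 bases. Before division its control mean, 859, was again the lowest cytosolic one, but only TARS2 (4538), IARS2 (1881) and LARS2 (1171) exceeded it among mitochondrial members. FARS2 was the lowest mitochondrial member tested, at 44.8 ± 4.39. The order at 72 h had the same extremes among tested members, NARS1 at 1415 ± 111 (SD, n = 5), CARS1 at 90.8 ± 5.69 among cytosolic members, TARS2 at 598 ± 69.5 and FARS2 at 21.6 ± 3.34. Medians at 72 h were 391 and 126. Levels at the 2 times come from tables normalized separately and were not compared.

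SARS2 and VARS2 were not tested at 48 h. SARS2 stood at 3.36 or less and VARS2 was listed at 0 in all 14 libraries of that time, while at 72 h their control means were 890.0 and 1070.4. Exons of SARS2 overlap those of AC011455.2 on the same strand over 46.2% of their length, and exons of VARS2 overlap those of GTF2H4 on the same strand over 22%. The part of this overlap in the low values was not tested. HARS2 also shares 11.7% of its exon length with HARS1 on the opposite strand, and the sources do not say whether counting used strand.

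The siRNA comparison asked what lowering MYC does to these transcripts. MYC stood at 7005, 7662 and 6741 in the batch A controls, at 5432, 6931 and 6030.0 in the batch B controls and at 3605, 3989, 4188 and 3622 in the siRNA libraries. All siRNA libraries were below all controls, and the log2 change was -0.80 (SE 0.11, adjusted p = 0.00034 by limma with Benjamini-Hochberg adjustment over the 14136 genes tested, as for all 48 h values here). Among the cytosolic synthetases 10 of 20 fell and none rose, against 7.56% of all genes tested called lower and 9.68% called higher. Among the mitochondrial synthetases 4 of the 14 tested fell and none rose. Of the 7 B-cell markers 4 were called higher in the siRNA libraries, among them CD79A at 0.35, CD79B at 0.45 and CD22 at 1.12, and their part in the synthetase values was not tested. In bulk RNA, fewer cells that express a gene and less RNA per cell cannot be told apart.

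Transcripts of the enzymes for threonine, valine, leucine and tyrosine had the largest falls among cytosolic members. TARS1 (chr5:33440696-33469539, plus strand, GRCh38, GENCODE 29, as for all positions of genes here) stood at 2616, 2607 and 2165 in batch A controls, 2026, 2344 and 2339 in batch B controls and 1708, 1828, 1699.8 and 1823 in siRNA libraries. The siRNA values were all below the lowest control, with a log2 change of -0.50 (SE 0.10, adjusted p = 0.00529). VARS1 (chr6:31777518-31795953, minus strand) stood at 3869, 4202 and 3739.5 in batch A controls, 2983, 3483 and 3277 in batch B controls and 2583, 2622, 2780.2 and 2454 in siRNA libraries. Again no siRNA library reached the lowest control, and the change was -0.49 (SE 0.11, adjusted p = 0.00835).

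LARS1 (chr5:146113038-146182660, minus strand), a member of the multisynthetase complex, was measured at 3949, 4078 and 3780.1 in batch A controls, 3252, 3483 and 3607 in batch B controls and 3051, 2919.6, 2891 and 3039.6 after siRNA. Its groups did not overlap and it changed by -0.39 (SE 0.07, adjusted p = 0.00237). YARS1 (chr1:32775237-32818153, minus strand) was measured at 3719, 3695 and 3486, at 2959.8, 3494 and 3435 and at 2897, 2820.2, 2805 and 2742 in the same order of groups. All its siRNA values lay under the lowest control, replicate 3, and its change was -0.39 (SE 0.07, adjusted p = 0.00225). The other cytosolic members called lower included GARS1 at -0.37 (adjusted p = 0.0381), MARS1 at -0.35 (adjusted p = 0.0454), IARS1 at -0.31 (adjusted p = 0.0247), RARS1 at -0.29 (adjusted p = 0.0408) and FARSB at -0.26 (adjusted p = 0.0482). They load glycine, methionine, isoleucine, arginine and, as the beta subunit of the cytosolic enzyme, phenylalanine.

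In the mitochondrial class the called members load glutamate, asparagine, methionine and tyrosine. EARS2 (chr16:23522014-23557731, minus strand) stood at 784, 819.7 and 693 in batch A controls, 547, 620.1 and 727 in batch B controls and 550.5, 550.1, 524 and 513 after siRNA. Control 3, at 547, fell within the siRNA range, and every other control was above it, with a change of -0.46 (SE 0.10, adjusted p = 0.00723). NARS2 (chr11:78435961-78574874, minus strand) stood at 757, 763 and 574 in batch A controls, at 539, 630.0 and 597 in batch B controls and at 515, 522, 506 and 495 after siRNA, without overlap, and changed by -0.41 (SE 0.10, adjusted p = 0.0131).

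MARS2 (chr2:197705369-197708387, plus strand) stood at 656, 703 and 645 in batch A controls, 522, 529.6 and 569 in batch B controls and 471, 444, 507 and 474 after siRNA, without overlap. Its change was -0.39 (SE 0.12, adjusted p = 0.0287), and its window holds the E-box shown above. YARS2 (chr12:32727490-32755902, minus strand) stood at 629.7, 627 and 523 in batch A controls, at 528, 584 and 549 in batch B controls and at 463, 461, 485 and 446 after siRNA, again without overlap, and changed by -0.35 (SE 0.10, adjusted p = 0.0275). The 3 members with CACGTG in their window were all called lower, and so were 7 of the 26 tested members whose window lacks it. LARS1, VARS1 and YARS1, also called lower, had no window and are in neither count. The share of all genes with this motif that were called lower was not counted. These are counts in chosen genes, were given no test and cannot be read as an effect of the motif.

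**Figure D1:**
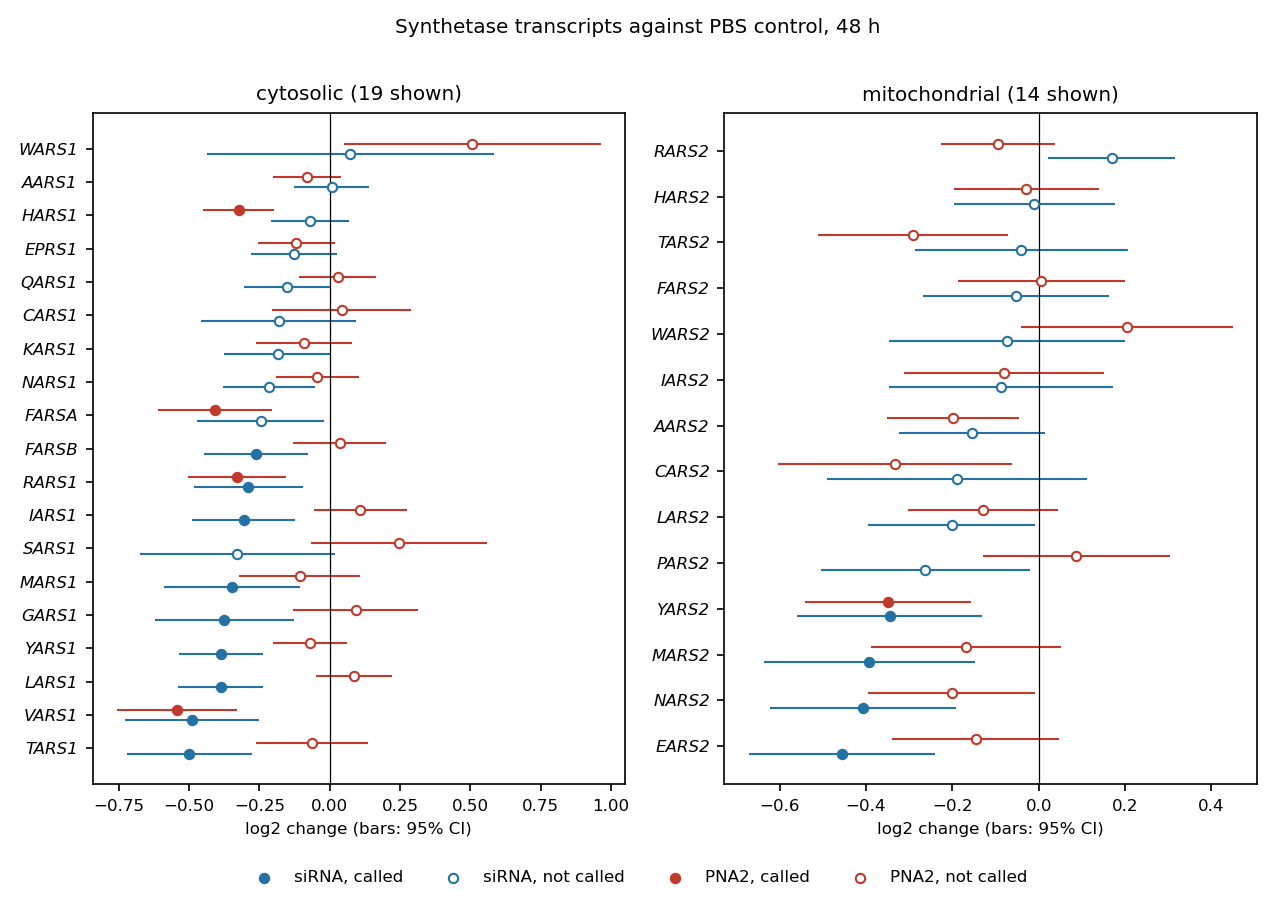
Log2 change against PBS control at 48 h for the synthetases drawn (horizontal axis, bars 95% confidence interval), cytosolic left and mitochondrial right, siRNA in blue and PNA2 in red, filled where the adjusted p was under 0.05. The filled siRNA points all lie left of 0, and without library scaling none of these siRNA calls remained.

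**Figure D2:**
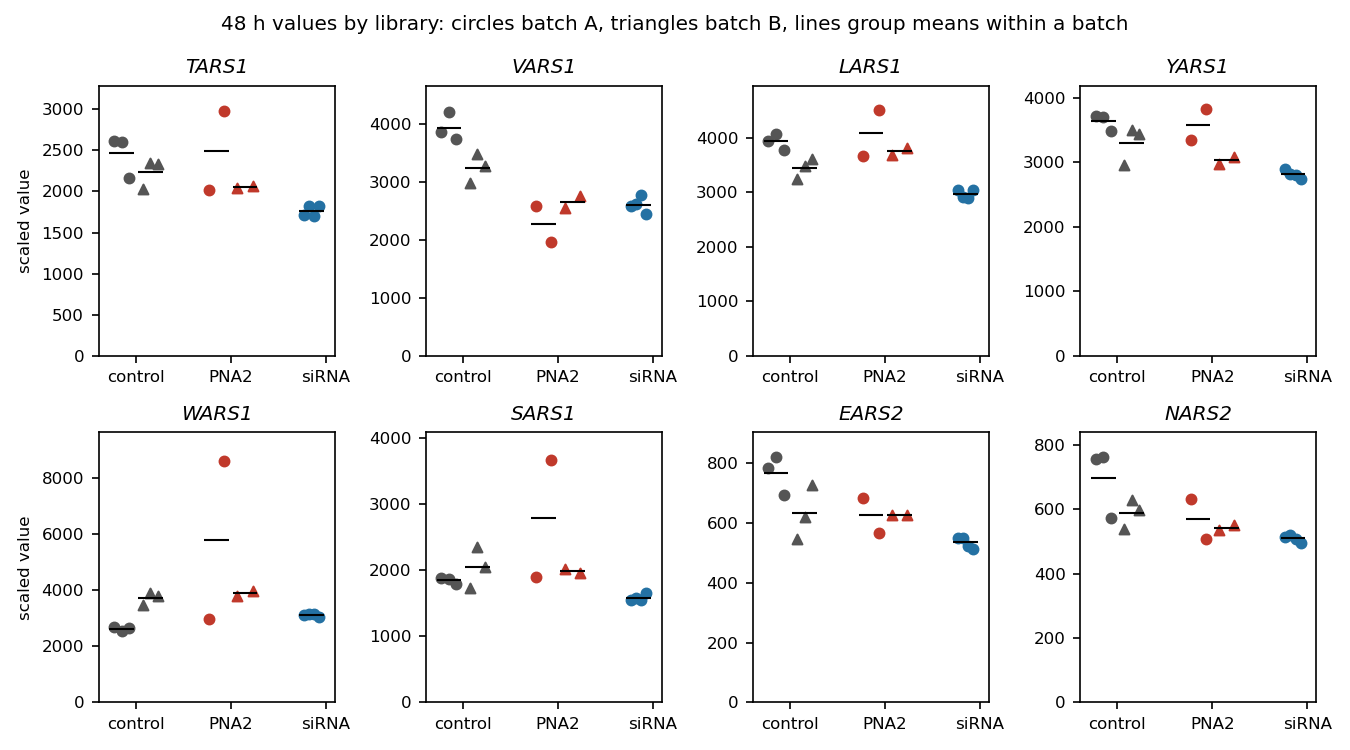
Scaled value in each 48 h library (vertical axis, linear from 0) for 8 synthetases by group, with circles for batch A, triangles for batch B and lines at the mean of a group within a batch. The siRNA points lie below the batch A controls except for WARS1, and PNA2 replicate 2 is the highest point for TARS1, LARS1, YARS1, WARS1 and SARS1.

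WARS1 and AARS1 were the cytosolic members with estimates above 0 under library scaling. WARS1, which loads tryptophan and is also induced by interferon, stood at 2687, 2530.1 and 2635 in batch A controls, 3484, 3893 and 3789 in batch B controls and 3124, 3134, 3152 and 3043 after siRNA. The siRNA values lay between the control batches, above all of batch A and below all of batch B, and the change of 0.07 (adjusted p = 0.868) did not pass. AARS1, which loads alanine, had a change of 0.01 (adjusted p = 0.956). RARS2, the mitochondrial arginine enzyme, was the mitochondrial member with a positive estimate, 0.17 (adjusted p = 0.108), which did not pass.

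Estimates were negative for 18 of 20 cytosolic and 13 of 14 mitochondrial members. Their medians were -0.28 and -0.17, against 0.01 over all genes tested; without library scaling, which moved the median of all genes to 0.22, they were -0.06 and 0.04, or -0.28 and -0.18 relative to all genes. Of the 8 complex members 5 fell (median -0.30), and of the 12 other cytosolic members 5 fell (median -0.25). By catalytic fold, 6 of 9 cytosolic class I members and 4 of 10 class II members fell, leaving out EPRS1, which carries both. The siRNA libraries resembled each other, with mean log2 differences from batch A controls of -0.26 to -0.24 over cytosolic and -0.23 to -0.21 over mitochondrial members.

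All siRNA libraries are in batch A, and an adjustment that equalises batch means can move part of their difference into the batch A controls, so a comparison inside that batch was also made. All 4 siRNA libraries lay below all 3 batch A controls for 16 of 20 cytosolic and 8 of 14 mitochondrial members, against 19.7% of all genes tested, and above them for WARS1 and RARS2 alone, against 20.6%. In a fit of batch A alone 9 cytosolic and 4 mitochondrial members were called, with 17.5% of all genes called.

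How many members passed depended on single libraries and on scaling. The calls of TARS1, VARS1, LARS1, YARS1 and EARS2 stood when any library of either group was left out. Without control 1, control 2, or siRNA replicate 1, 3 or 4 those 4 cytosolic members alone were called, and without siRNA replicate 2 there were 5. In those fits the share of all genes called was 8.62% to 12.0%, against 17.2% with all libraries. The largest adjusted p with a library left out was 0.125 for FARSB and 0.108 for MARS1. The mitochondrial count was 2 without control 1 or siRNA replicate 1, 2 or 4, and 1 without control 2, the library whose removal ended the NARS2 call (adjusted p = 0.0529). Without library scaling no member was called.

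The PNA2 comparison asked what the peptide nucleic acid does to the same transcripts. MYC in PNA2 libraries at 48 h stood at 7172, 7299, 7872 and 8964, overlapping the controls given above, and its log2 change of 0.24 (adjusted p = 0.0917, limma) did not pass. Without PNA2 replicate 2 it was 0.28 (adjusted p = 0.0403) and passed, as it also did without library scaling, with quantile normalization and in batch B alone. Of the cytosolic synthetases 4 of 20 fell and none rose, against 8.14% of all genes called lower and 8.45% called higher. Of the mitochondrial synthetases 1 of 14 fell. This comparison uses the same controls as the siRNA comparison. Of the 7 B-cell markers 1 was called higher and 1 lower, or 3 higher and 1 lower without PNA2 replicate 2. Their part in the synthetase values was not tested.

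VARS1 had the largest fall. Its PNA2 values were 2592, 1964, 2562 and 2762, all below the lowest control at 2983, and its change was -0.54 (SE 0.10, adjusted p = 0.00272), or -0.41 (adjusted p = 0.000566) without PNA2 replicate 2. FARSA, the alpha subunit of the phenylalanine enzyme (chr19:12922479-12934037, minus strand), stood at 3018, 3320.3 and 3046 in batch A controls, 2449, 3119.9 and 2715 in batch B controls and 2332, 1777, 2398 and 2391 in PNA2 libraries. All PNA2 libraries were under the lowest control, and the change was -0.41 (SE 0.10, adjusted p = 0.0104), or -0.29 (adjusted p = 0.00847) without replicate 2.

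RARS1, which loads arginine (chr5:168486445-168519299, plus strand), stood at 2584, 2556 and 2173 in batch A controls, 1902, 2019 and 2462 in batch B controls and 1941, 1641, 1824 and 1824 after PNA2. PNA2 replicate 1 lay above control 3 and the other 3 PNA2 libraries below every control, with a change of -0.33 (SE 0.08, adjusted p = 0.0143), or -0.26 (adjusted p = 0.0181) without replicate 2. HARS1, which loads histidine (chr5:140673904-140691862, minus strand), stood at 1604, 1661 and 1620.5, at 1449.5, 1623 and 1523 and at 1257, 1172, 1308 and 1313 in the same order of groups. No PNA2 library reached the lowest control, and the change was -0.32 (SE 0.06, adjusted p = 0.00246), or -0.29 (adjusted p = 0.00178) without replicate 2.

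YARS2 was the mitochondrial member called. Its PNA2 values were 548, 385, 434 and 442, of which replicate 1 overlapped the controls and the others did not, and it changed by -0.35 (SE 0.09, adjusted p = 0.0169), or -0.26 (adjusted p = 0.0316) without replicate 2. Leaving that library out brought in MARS1 at -0.27 (adjusted p = 0.00291) as lower and WARS2, which loads mitochondrial tryptophan, at 0.32 (adjusted p = 0.044) as higher. The count of cytosolic members called then was 5, and of mitochondrial members 2, with 17.9% of all genes called. Without PNA2 replicate 1 the counts were 6, of which 2 higher (WARS1 among them), and 3, while the share of all genes called was 22.4%, against 16.6% with all libraries.

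Within batch B alone, which leaves out replicate 2, VARS1 was at -0.30 (adjusted p = 0.0338) and YARS2 at -0.35 (adjusted p = 0.0408), while FARSA, RARS1 and HARS1 did not pass. Within batch A alone those 3 and VARS1 passed and YARS2 did not. Medians of the estimates were -0.05 over cytosolic and -0.14 over mitochondrial members, against 0.00 over all genes; without library scaling, which moved the median of all genes to 0.19, they were 0.14 and 0.06, and 2 cytosolic members, WARS1 among them, were called, both higher. The members that did not pass include TARS1 at -0.06 (adjusted p = 0.679), LARS1 at 0.09 (adjusted p = 0.366) and YARS1 at -0.07 (adjusted p = 0.468), which fell after siRNA. The 95% interval of the LARS1 change ran from -0.05 to 0.22.

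PNA2 replicate 2 stood apart from all other 48 h libraries and is described here alone, with no test, as a single library. Each value is its log2 difference from the mean of the 3 batch A controls. An adjustment that equalises batch means can move part of this library's difference into those controls, which was not tested. The cytosolic members spread from -1.0 to 1.72, 10 above and 10 below 0, with an SD across members of 0.63 against 0.18 to 0.19 in the other PNA2 libraries. On this scale, with batch B libraries set against batch B controls, it was higher than all other 48 h libraries in 8 cytosolic members and lower than all in 5. Of the mitochondrial members 12 of 14 lay below 0, 8 of them under all other libraries and none above. The share of all genes tested that were extreme in this library was not counted. These counts therefore cannot be read as particular to the synthetases.

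WARS1 stood at 8599 in this library, against 2971, 3804 and 3974 in the other PNA2 libraries, a ratio to the batch A controls of 3.29 (log2 1.72). SARS1, which loads serine, stood at 3669.6 against 1900.1, 2008 and 1958, a log2 difference from the controls of 0.99. Both were far outside the other PNA2 libraries, which lay near the controls of their batch. CARS1 (0.65), GARS1 (0.58), MARS1 (0.40), IARS1 (0.39), TARS1 (0.28) and LARS1 (0.20) completed the members above all other libraries.

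The members at the other end were VARS1 (-1.0), FARSA (-0.81), RARS1 (-0.57), HARS1 (-0.47) and KARS1 (-0.44). Except for KARS1, at -0.12, 0.09 and 0.10, these were also below the batch controls in the other 3 PNA2 libraries, at -0.60 to -0.20. Among mitochondrial members CARS2 stood at 429.5 against 826, 667 and 654 in the other PNA2 libraries, a log2 difference from the batch A controls of -0.97. TARS2 (-0.80), MARS2 (-0.65), YARS2 (-0.62) and IARS2 (-0.57) were the next lowest. FARS2 (0.02) and PARS2 (0.07) were the mitochondrial members above 0. The mean over members was 0.08 for the cytosolic and -0.39 for the mitochondrial class.

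Other genes moved in the same library. ATF4 stood at 14688 there against 6289, 6301 and 6539 in the other PNA2 libraries. All 16 tested genes of the ATF4 list lay above the batch A controls, 15 of them by more than 0.5, with a median of 1.5 against 0.27, -0.04 and -0.10 in PNA2 replicates 1, 3 and 4. DDIT3, a stress-induced transcription factor whose exons overlap those of MARS1 on the opposite strand over 5.05% of the MARS1 length, was higher than the batch A controls by 4.22. It stood at 1274 in this library, at 51.7, 45.8 and 129 in batch A controls and at 360, 300 and 277 in batch B controls. The size of this difference thus depends on the batch of controls used. So do the list medians, since PNA2 replicates 3 and 4 were set against batch B controls. The B-cell markers MS4A1 and CD22 stood at 5887 and 483, against at least 11753 and 1427 in all other 48 h libraries. The part of these differences in the synthetase values was not tested. Above the batch A controls in this library were 1 of the 3 tested members with TGATGNAA in the window and 8 of the 26 without it. LARS1 and YARS1, also above those controls, had no window and are in neither count. The share over all genes with this motif was not counted, and no test was made.

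**Figure D3:**
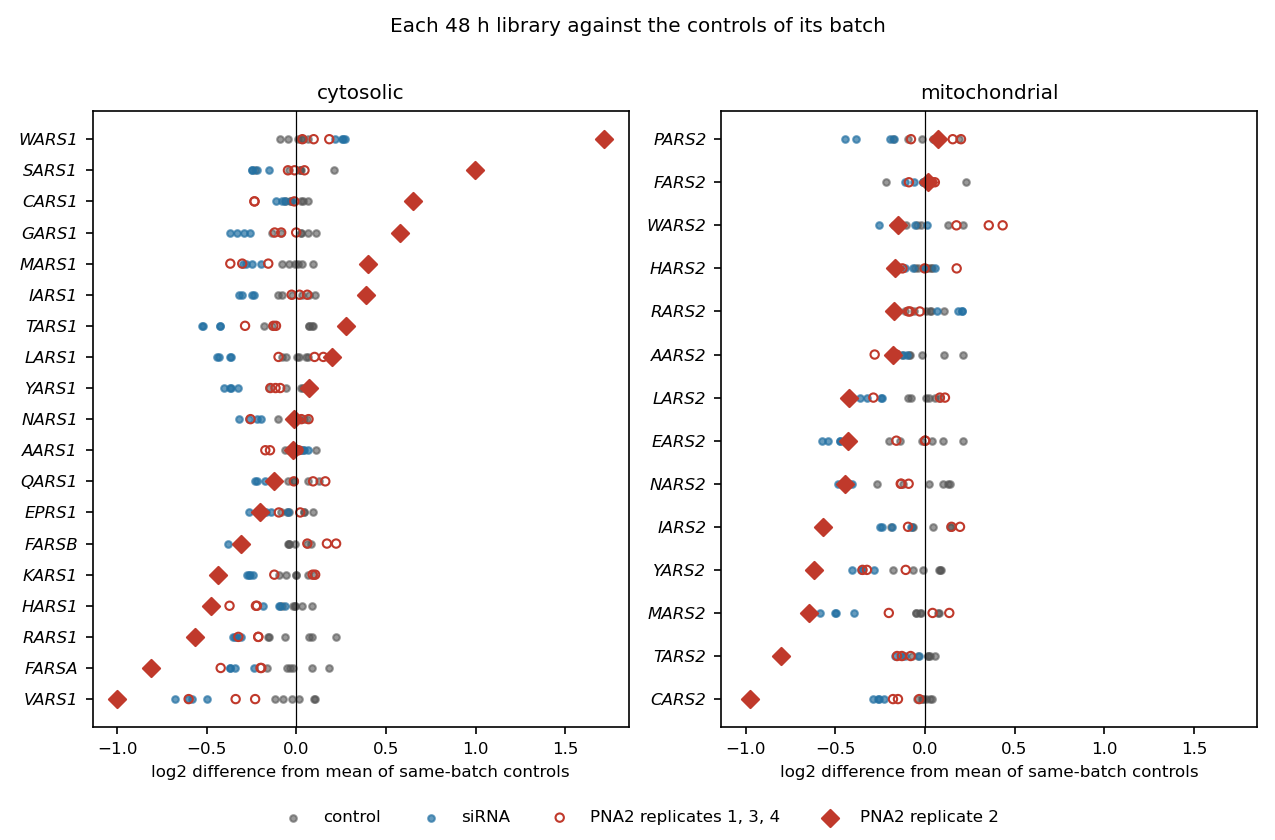
Log2 difference of each 48 h library from the mean of the controls of its batch (horizontal axis) for the synthetases drawn, ordered by PNA2 replicate 2 (diamonds), with controls in grey, siRNA in blue and the other PNA2 libraries as open circles. Diamonds run from -1.0 to 1.72 in the cytosolic panel and lie at or left of 0.07 in the mitochondrial panel.

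PNA2 and siRNA libraries were set against each other at 48 h, as agents directed at the same gene with different chemistry, dose and delivery, which cannot be told apart here. MYC was higher in PNA2 libraries by 1.04 (SE 0.11, adjusted p = 2.5e-05, limma). Of the cytosolic synthetases 8 of 20 were higher and 1 lower in PNA2 libraries, against 11.4% and 12.5% of all genes. Of the mitochondrial synthetases 1 of 14 was higher and 1 lower. Without PNA2 replicate 2 these counts were 9 and 1, and 4 and 1. In that fit 3934 of the 14029 genes tested were called, against 3373 of 14136 with all libraries.

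SARS1 had the largest difference, 0.57 (SE 0.18, adjusted p = 0.0273), with 1900.1, 3669.6, 2008 and 1958 in PNA2 and 1549, 1581, 1549.6 and 1655 in siRNA libraries. All PNA2 values were above all siRNA values, yet replicate 2 carried much of the size, and without it the difference was 0.23 (adjusted p = 0.0675) and did not pass. The SARS1 call was also lost without siRNA replicate 1, 2 or 3.

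LARS1 stood at 3670.2, 4505, 3694 and 3821 in PNA2 libraries, above every siRNA library, and differed by 0.47 (SE 0.08, adjusted p = 0.000476), or 0.41 (adjusted p = 0.000307) without replicate 2. GARS1 (chr7:30594681-30634033, plus strand) stood at 3867, 6119.9, 3656 and 3973 in PNA2 and 3256, 3350.0, 3177 and 3434 in siRNA libraries, without overlap. It differed by 0.47 (SE 0.13, adjusted p = 0.0138), or 0.24 (adjusted p = 0.021) without replicate 2, the highest of the PNA2 libraries. TARS1, IARS1, YARS1 and FARSB were also higher, by 0.44 (adjusted p = 0.0108), 0.42 (adjusted p = 0.00482), 0.32 (adjusted p = 0.00674) and 0.30 (adjusted p = 0.0296). Without replicate 2 they were at 0.27, 0.28, 0.25 and 0.45, all still called. The FARSB call was lost without PNA2 replicate 1 or any siRNA library (adjusted p up to 0.086). HARS1 was lower, at -0.25 (adjusted p = 0.0168). VARS1, low in both groups, differed by -0.05 (adjusted p = 0.792), which did not pass.

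PARS2, the mitochondrial proline enzyme (chr1:54756898-54764514, minus strand), stood at 180.2, 199.8, 191 and 185 in PNA2 and 139, 166, 146 and 169 in siRNA libraries. The groups did not overlap, with a difference of 0.35 (SE 0.12, adjusted p = 0.0493), which did not pass without replicate 2 (0.34, adjusted p = 0.081), nor without any other single library except PNA2 replicate 1 (adjusted p up to 0.136). RARS2 (chr6:87514378-87590003, minus strand) stood at 700.1, 633, 684 and 679 in PNA2 and 811, 824, 749 and 823 in siRNA libraries. All PNA2 values were lower, with a difference of -0.26 (SE 0.07, adjusted p = 0.018), or -0.22 (adjusted p = 0.043) without replicate 2. Leaving out that library, which also raised the number of all genes called, brought in KARS1, QARS1, EARS2, MARS2, NARS2 and WARS2 as higher, at 0.24 to 0.45. Without library scaling 2 members, LARS1 among them, were called. PNA2 replicates 3 and 4 are in batch B and all siRNA libraries in batch A, so the library values above cross batches. In batch A alone 8 cytosolic members and 1 mitochondrial member were called, with 22.8% of all genes called. FARSB (0.20, adjusted p = 0.147, limma) and PARS2 (0.30, adjusted p = 0.116) did not pass there.

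At 72 h MYC did not pass in PNA2 against control, with a log2 change of -0.18 (adjusted p = 0.794 by limma over 11985 genes, as for all 72 h values here). Its values were 1121, 2321, 2035, 2845 and 826 in control and 2007, 2032, 460, 1966 and 1809 in PNA2 libraries, which overlapped. The sign rested on single libraries, since the change was 0.24 (adjusted p = 0.627) without PNA2 replicate 3 and 0.02 (adjusted p = 0.986) without control 4. Of the cytosolic synthetases 1 of 20 rose and none fell, against 12.1% and 11.7% of all genes. Of the mitochondrial synthetases 2 of 16 rose and 3 fell. Medians were 0.01 and -0.03, against -0.01 over all genes. The summed B-cell markers ran from 50390.3 to 56912 in control and from 65244 to 82594 in PNA2 libraries, without overlap. Among them CD79A (0.77), CD79B (0.48) and CD74 (0.50) were called higher and MS4A1 (-0.34) lower, and their part in the synthetase values was not tested.

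KARS1 (chr16:75627474-75648643, minus strand), which loads lysine in both compartments, stood at 2347, 2699.6, 2475, 2112 and 2432 in control and 2757, 3239, 3281, 2751 and 2953 in PNA2 libraries. Every PNA2 value was above every control, with a change of 0.31 (SE 0.08, adjusted p = 0.0169). PARS2 stood at 83.3, 108, 96, 106 and 98.5 in control and 170.3, 129.6, 141, 149 and 132 in PNA2 libraries, without overlap, and rose by 0.55 (SE 0.12, adjusted p = 0.00808). FARS2, the mitochondrial phenylalanine enzyme (chr6:5261044-5829192, plus strand), stood at 102, 79.5, 104, 112 and 123 in control and 137, 183, 210.3, 138 and 121 in PNA2 libraries. PNA2 replicate 5 overlapped the highest control and the others did not, and the change was 0.58 (SE 0.17, adjusted p = 0.0318).

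VARS2 (chr6:30908242-30926459, plus strand), the mitochondrial valine enzyme, stood at 1152, 1137, 1079, 1002 and 981 in control and 836, 783, 838, 872 and 780.2 in PNA2 libraries. All PNA2 values were under all controls, and the change was -0.38 (SE 0.07, adjusted p = 0.00397). CARS2, the mitochondrial cysteine enzyme (chr13:110641412-110713603, minus strand), stood at 419, 479.6, 387, 359 and 465 in control and 292, 328, 389, 323 and 343 in PNA2 libraries. The groups overlapped through PNA2 replicate 3, and the change was -0.33 (SE 0.11, adjusted p = 0.0434). AARS2, which loads mitochondrial alanine, fell by 0.32 on the log2 scale (adjusted p = 0.0335).

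The calls of KARS1, PARS2 and VARS2 stood when any library was left out. The call of FARS2 was lost without control 1, 2 or 3 or PNA2 replicate 2 or 3 (adjusted p up to 0.0777), and that of AARS2 without control 2, 3 or 5 or PNA2 replicate 1, 4 or 5 (up to 0.0781). The call of CARS2 was kept only without control 4 or PNA2 replicate 3 (adjusted p otherwise up to 0.0991). The mitochondrial count fell to 2 without control 2 or control 3, and to 3 without control 1 or 5 or PNA2 replicate 1, 2, 4 or 5. The cytosolic count was 3 without control 2 or PNA2 replicate 3 or 5, and 4 without PNA2 replicate 4. The share of all genes called ran from 17.5% to 27.9% over these fits, the highest without PNA2 replicate 4, against 23.8% with all libraries. NARS1 had the lowest cytosolic estimate, -0.30 (adjusted p = 0.057), and did not pass although its PNA2 values, 5073, 4962, 3533, 4979 and 5144, were all under the controls, 6442, 5708, 5384, 5376 and 6026. The members that passed at 48 h did not pass at 72 h, VARS1 being at 0.01 (adjusted p = 0.946), FARSA at 0.11 (adjusted p = 0.278), RARS1 at -0.10 (adjusted p = 0.383), HARS1 at -0.17 (adjusted p = 0.125) and YARS2 at 0.05 (adjusted p = 0.647). The difference between the times was not tested.

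**Figure D4:**
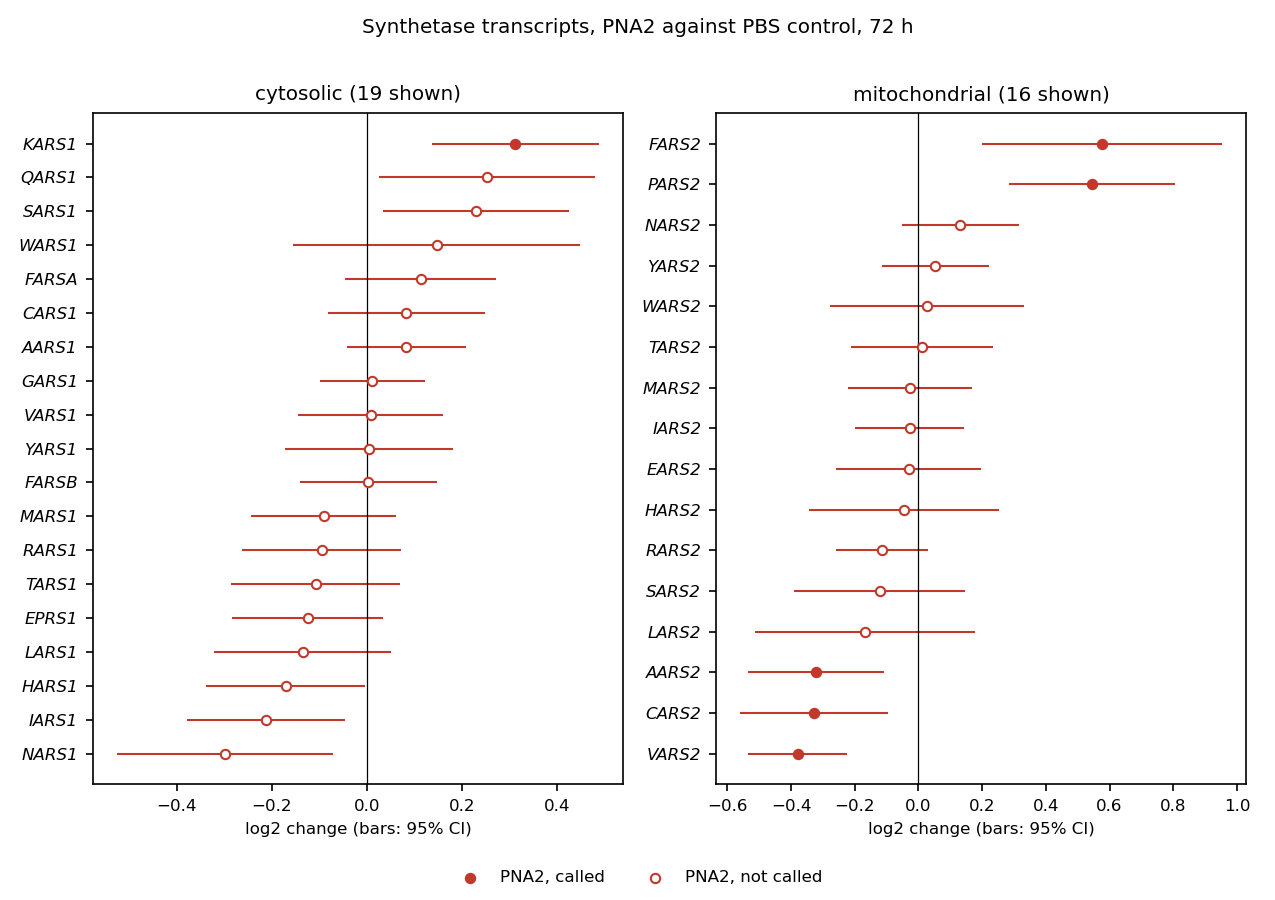
Log2 change of PNA2 against PBS control at 72 h for the synthetases drawn (horizontal axis, bars 95% confidence interval), cytosolic left and mitochondrial right, filled where the adjusted p was under 0.05. KARS1, PARS2 and FARS2 lie right of 0 and VARS2, CARS2 and AARS2 left of it among the filled points.

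**Figure D5:**
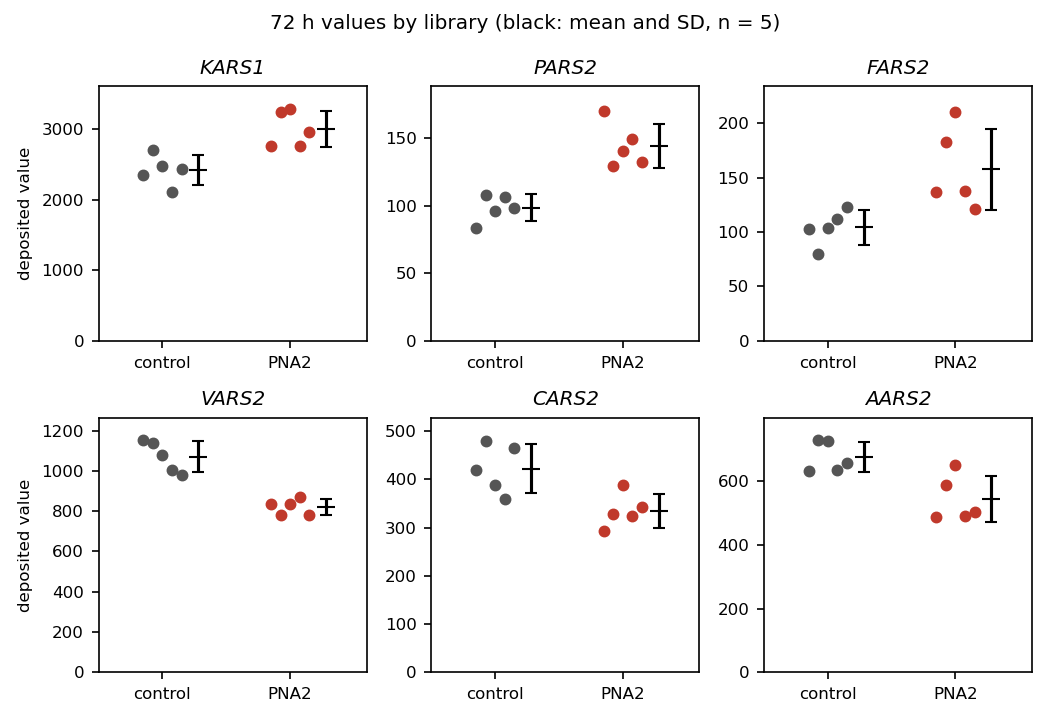
Deposited value in each 72 h library (vertical axis, linear from 0) for the 6 members called, with the mean and SD of 5 libraries beside each group. KARS1, PARS2 and VARS2 show no overlap of PNA2 and control points.

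Genes that work beside the synthetases were followed in lists, with the same background shares as above. Of the complex scaffolds, EEF1E1 fell by 0.49 on the log2 scale in PNA2 at 48 h (adjusted p = 0.00607), and AIMP1 and AIMP2 were not called there. None of the 3 passed after siRNA. AIMP2 was higher in PNA2 than in siRNA libraries by 0.52 (adjusted p = 0.00634) and rose at 72 h by 0.45 (adjusted p = 0.00406). GATB, a subunit of the mitochondrial enzyme that turns misloaded glutamate into glutamine, rose at 72 h by 0.30 (adjusted p = 0.0142), as 1 of 5 genes of mitochondrial charging; none of the 5 passed at 48 h.

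Among 5 genes of other charging and proofreading, SEPSECS, which completes selenocysteine synthesis on its tRNA, fell by 0.70 on the log2 scale at 72 h (adjusted p = 0.0195). DTD1, which removes D-amino acids from tRNAs, rose by 0.39 at that time (adjusted p = 0.00662). PSTK, the kinase that acts before SEPSECS, was higher in PNA2 than in siRNA libraries by 0.86 (adjusted p = 0.0276), a call lost without PNA2 replicate 2 or siRNA replicate 2 or 4. Of 12 genes of tRNA maturation and export, SSB, the La protein, fell by 0.51 on the log2 scale after siRNA (adjusted p = 0.0164), a call lost without control 1 or 2 or siRNA replicate 3. RPP25, a subunit of RNase P, rose by 0.43 after siRNA (adjusted p = 0.0275), a call lost without control 1 or 2 or siRNA replicate 1, 3 or 4, and by 0.62 at 72 h (adjusted p = 0.0046). In the same list TSEN54, another subunit of the tRNA splicing endonuclease, fell by 0.32 on the log2 scale in PNA2 at 48 h (adjusted p = 0.0103). TRNT1, which adds the CCA end, fell by 0.47 on the log2 scale at 72 h (adjusted p = 0.0286), a call kept only without control 2 or PNA2 replicate 4 or 5. XPOT, the tRNA exporter, and TSEN15, also of that endonuclease, were higher in PNA2 than in siRNA libraries by 0.71 (adjusted p = 0.015) and 0.63 (adjusted p = 0.00402). XPOT stood at 3584, 8266, 4103 and 4381 in PNA2 libraries, highest in replicate 2, and without that library the differences were 0.32 (adjusted p = 0.00947) and 0.49 (adjusted p = 0.0105).

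The ATF4 list had no call after siRNA among the 16 of its 18 genes tested (median -0.26) and 1 in PNA2 at 48 h (median 0.39, or 0.02 without PNA2 replicate 2). That call, of SHMT2 at 0.27 (adjusted p = 0.0459), was lost without PNA2 replicate 2, 3 or 4, control 1, 2, 3 or 4, or control column 7. Without replicate 2 TRIB3 was called at 0.59 (adjusted p = 0.0341) and SLC7A5 at -0.27 (adjusted p = 0.0211). TRIB3 lay above the controls of its batch by 1.38 in replicate 1, 0.22 in replicate 3 and 0.002 in replicate 4. Its controls stood at 170, 207 and 270 in batch A and at 1169, 1178 and 1182 in batch B. Leaving out replicate 2 does not undo any part it had in the adjustment of the deposited values. At 72 h 10 of 16 rose and none fell, with a median of 0.32, and in those libraries 1 of 20 cytosolic synthetases was called higher. The largest rises were CHAC1 at 0.93 (adjusted p = 0.0103), TRIB3 at 0.68 (adjusted p = 0.000802) and CEBPB at 0.51 (adjusted p = 0.00477). ATF4 itself rose by 0.35 (adjusted p = 0.00577).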

How the data were processed

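RNA-seq libraries of U2932 cells were grouped by their labels. The submitters' processing notes name, without roles, DESeq2, HTSeq 0.11.0, SAMtools 1.7, HISAT2 2.2.1 and Trimmomatic, with the build GRCh38; use of strand is not given in the sources used here. The deposited 48 h values, called normalized per the file headers, are another unit: count-like values that look adjusted per batch from the values themselves, with 5099 genes holding values below 0 (lowest -223.8). The deposited 72 h values are a signal, gene counts divided by a factor per library as read from the values, of which 100% came out whole within 0.01.

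At 48 h values below 0 were set to 0, scaled by TMM (edgeR 4.0.16), and log2(value + 1) was fitted with limma 3.58.1 in R 4.3.3 for group and batch, with the 3 groups sharing the spread. At 72 h log2(deposited value + 1) was fitted for group. Fold changes are on these scales and understate low genes. Genes needed a value of at least 10 in 4 libraries (48 h) or 5 (72 h). Tests were two-sided, with Benjamini-Hochberg adjustment over all genes tested and a threshold of 0.05. The fit was tested on simulated data. Values were given per library for the 4 called members of each class with the largest change. Alternatives covered scaling, batch, filter, pseudocount, replicate block, left-out libraries and, at 72 h, edgeR and DESeq2 1.42.0 on the recovered reads. For 1 cytosolic member, counted with its class, and 1 marker the results are not reported here. Members and lists were chosen with earlier results of these data known.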

Additional observations from a re-analysis of the deposited data

Results flagged for a closer look

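In 16 of 174 groups of 4 to 6 libraries, counted per gene, the highest or lowest library lay apart from the others by Dixon's criterion, where chance flags about 1 in 20. PNA2 replicate 2 at 48 h accounted for 8 of these. It was high for CARS1 (1289), GARS1 (6119.9), IARS1 (8422), SARS1 (3669.6) and TARS1 (2975), and low for FARSA (1777), KARS1 (3412) and IARS2 (1379). Genes share libraries, so these flags are not independent of each other. The share of all genes flagged was not counted, and the counts cannot be read as particular to the synthetases.

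Other single libraries at 48 h were control 3, low for YARS1 (2959.8), and siRNA replicate 3, low for RARS2 (749). At 72 h control 2 was low for GARS1 (2964) and LARS2 (436) and high for WARS1 (2968). Control 1 at 72 h was low for IARS1 (4506) and SARS1 (1452), and PNA2 replicate 3 at 72 h was low for NARS1 (3533).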

How the results depend on the processing

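Counts of members called depended on scaling more than on the pseudocount, which kept every count within 1.5 times. Without library scaling, siRNA against control at 48 h gave 0 cytosolic and 0 mitochondrial calls, PNA2 against control 2 and 0, and PNA2 against siRNA 2 and 0, while the share of all genes called was 15.5%, 15.4% and 12.6% (17.2%, 16.6% and 23.9% in the fits reported). With the batch term dropped as well the counts were 0 and 0, 2 and 0, and 1 and 0, with shares of 9.87%, 15.6% and 8.45%. Dropping the batch term alone gave 4 and 2 for siRNA, where the share of all genes fell to 8.47%. It also gave 1 mitochondrial call for PNA2 against siRNA, with 19.7% of all genes called. Fitting only the 2 groups compared gave 16 cytosolic calls for siRNA, 15 lower and WARS1 higher at 0.25 (adjusted p = 0.00252), with 33.3% of all genes called, 0 mitochondrial calls for PNA2 against control (7.56% of all genes) and 1 for PNA2 against siRNA (23.4%). Mitochondrial calls were 2 with quantile normalization (16.8% of all genes) and 2 in batch A alone (13.9%) for PNA2 against control. For PNA2 against siRNA they were 1 in batch A alone (22.8%) and 1 with no filter (16.6%). DESeq2 gave 2 cytosolic calls at 72 h, with 27.7% of all genes called.

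Leaving out single libraries gave 4 to 6 cytosolic and 1 to 3 mitochondrial calls for PNA2 against control at 48 h, 4 to 9 and 1 to 4 for siRNA, 7 to 10 and 1 to 5 for PNA2 against siRNA, and 1 to 4 and 2 to 5 at 72 h. FARSB after siRNA turned from -0.26 to 0.0181 with neither batch term nor scaling.

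Same-numbered libraries did not deviate together (r from -0.04 to 0.11 at 72 h and from -0.35 to 0.09 at 48 h). At 48 h some of them lie in different batches, so these values cannot show whether they share more than a number. With the replicate block, cytosolic and mitochondrial calls were 2 and 0 for PNA2 against control at 48 h, 3 and 0 for siRNA, 3 and 3 at 72 h, and 1 mitochondrial for PNA2 against siRNA, with 6.01%, 6.99%, 23.1% and 13% of all genes called. Of the alternatives for single members, 477 kept direction and call, and the others, FARSB above excepted, kept direction but lost the call. SARS2 and VARS2 were too low to be tested at 48 h.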
